A study of Mus musculus with 10 samples.

Results

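A set of 32 genes that mark neutrophils or carry out their work was followed in the lactating mouse mammary gland after endotoxin; the genes were listed by symbol, and all 32 were found among the 35275 genes measured. They were 9 receptors, the chemoattractant Prok2, 6 genes of granule proteins, 2 of other secreted proteins, 5 of surface proteins, 4 of the NADPH oxidase and 5 of enzymes and regulators, and the calprotectin genes S100a8 and S100a9 are not among them. RNA of 5 glands given lipopolysaccharide (LPS) was compared with RNA of 5 glands given phosphate-buffered saline (PBS). All glands were 4th mammary glands of BALB/c females, an inbred strain, on day 3 of lactation, and both fluids (50 µL, the LPS of E. coli 055:B5 at 0.4 mg/mL) entered through the teat 12 h before collection. Per the labels the sides of the gland pair were injected alternately with LPS or PBS in a study of n = 9, so a PBS gland may share its mouse with an LPS gland, and the samples hold no uninjected gland. The labels do not give the mouse of each of the 10 libraries, and p-values therefore reflect only the variation among these samples, part of which may be technical.

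Neutrophils are short-lived leukocytes that mature in the bone marrow, circulate, and enter infected tissue when chemokines bind their receptors and integrins hold them to the vessel wall. They carry ready-made granules of proteases and antimicrobial proteins and an NADPH oxidase that makes superoxide, and much of the granule content is transcribed in marrow precursors and no longer in the mature cell. In mastitis they are the main cells that pass into milk. RNA of whole glands was measured, so more cells of a type and more RNA per cell cannot be told apart.

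Levels are FPKM (fragments counted for a gene, divided by its length and by the counted reads of the library), as the authors deposited them, at a depth of 15734303 to 18869545 counted reads per gland. Changes are LPS minus PBS on the log2(FPKM + 1) scale with their standard error, which understates the change of low genes, and a gene is called at a limma adjusted p below 0.05. Only genes with at least 1 FPKM in at least 5 of the 10 glands were tested, 11414 in all and 23 of the 32 neutrophil genes. LPS gland 3 and PBS glands 2 and 4 were the highest in B and T cell transcripts: the summed level of 11 B and T cell markers was 1.11 to 24.7 FPKM in LPS glands and 1.37 to 70.99 FPKM in PBS glands.

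Of the 23 neutrophil genes tested, 5 rose in LPS glands (Csf3r, Cxcr2, Clec4d, Retnlg and Chil3) and 1 fell (G0s2), where 2.63% of all tested genes rose and 0.605% fell. Chil3 passed the filter through its LPS glands alone, since all 5 PBS glands were below 1 FPKM, and Cxcr2 and Clec4d passed through the 5 LPS glands and PBS gland 2, so the count of 5 is a description. Every LPS gland lay above every PBS gland for 7 of the 32 genes (Csf3r, Cxcr2, Trem1, Clec4d, Clec4e, Chil3 and Ly6g), against 2.08% of the 23059 genes above 0. In the reverse direction G0s2 alone of the 32 was separated, against 0.863% of those genes. In a fit without the filter on low values 28 of the 32 changes were positive and 4 negative (Mpo, Elane, Cybb and G0s2), with a median of 0.64 against 0.01 over all genes. That limma fit called 0 of the 32, although 18 rises and 1 fall had an unadjusted p under 0.05, and it called 0.438% of genes as higher and 0.108% as lower. edgeR on whole reads recovered from the FPKM, with its own filter, called 10 of 28 as higher (background 2.41%) and 1 as lower (background 0.957%). Trem1 and Trem3 entered that fit mainly through their LPS glands, so its count is a description too.

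**Figure D1:**
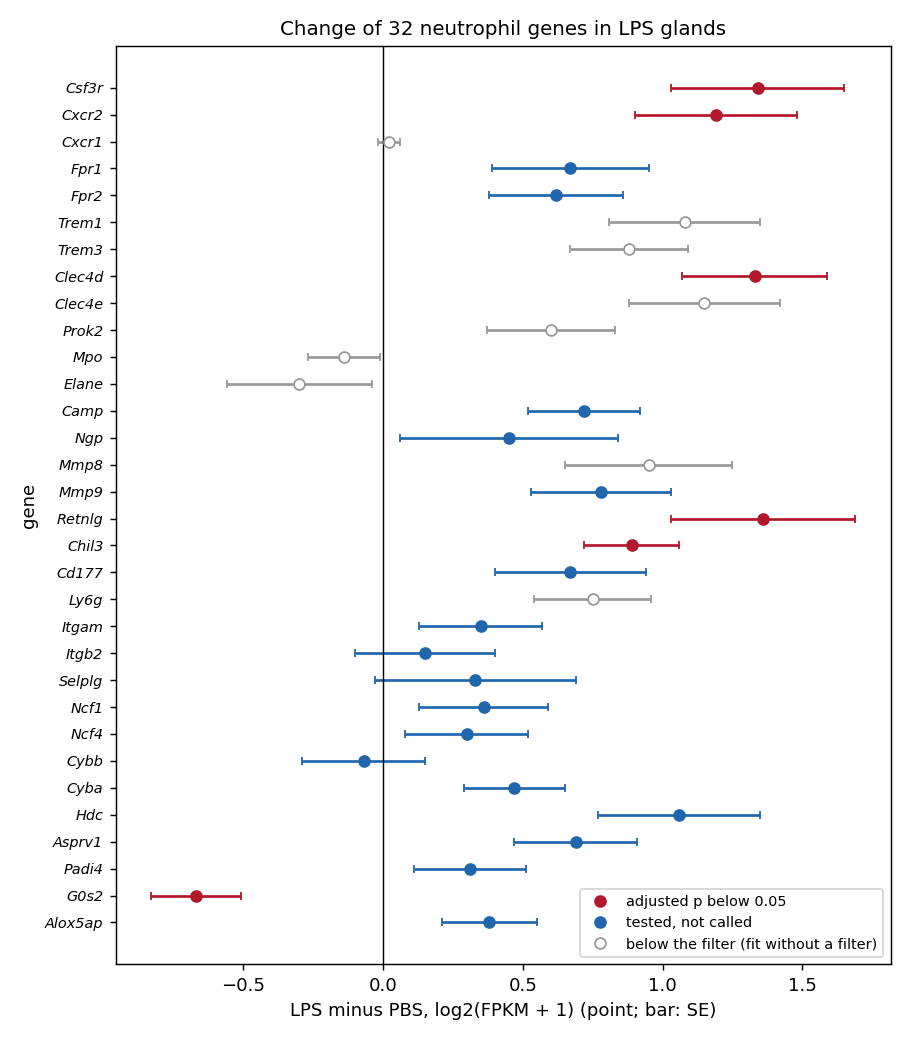
Change of each of the 32 genes, LPS minus PBS on log2(FPKM + 1), as a point with its standard error (5 glands per group). Red points are the 6 genes called by limma, blue points were tested and not called, and open grey points are the 9 genes under the filter, from the fit without it; G0s2 is the called gene left of 0.

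Of the 9 receptor genes 5 were tested and 3 rose, Csf3r, Cxcr2 and Clec4d; Csf3r and Cxcr2, the defining markers of neutrophils here, had reads in all 10 glands. Csf3r (ENSMUSG00000028859, chromosome 4, 126024550 to 126044440, plus strand of build mm10) encodes the receptor of G-CSF, the cytokine that drives neutrophil production. It was at 3.93, 15.6, 8.47, 5.004 and 15.3 FPKM in LPS glands 1 to 5, against 2.62, 3.78, 2.24, 2.501 and 2.64 FPKM in PBS glands 1 to 5. LPS glands 2 and 5 were the highest, LPS glands 1 and 4 came closest to the PBS range, and the groups did not overlap. The mean was 9.65 ± 5.53 FPKM in LPS glands and 2.76 ± 0.594 FPKM in PBS glands (SD, n = 5 each), a 3.50-fold ratio with a log2 change of 1.34 ± 0.31 and an adjusted p of 0.0343. Cxcr2 (ENSMUSG00000026180, chromosome 1, 74153989 to 74161246, plus strand), the receptor of the CXC chemokines that draw neutrophils into tissue, was at 1.67, 5.77, 1.94, 1.71 and 6.24 FPKM in LPS glands 1 to 5, against 0.799, 1.11, 0.291, 0.939 and 0.779 FPKM in PBS glands 1 to 5. LPS glands 5 and 2 stood apart from the other 3, and the groups did not overlap. Its log2 change was 1.19 ± 0.29 (adjusted p = 0.0475; 0.0548 with median-of-ratios scaling), and its reads numbered 96, 319, 102, 83 and 322 in LPS glands, against 44, 57, 15, 45 and 38 in PBS glands. Cxcr1, the neighbouring gene of a related chemokine receptor, had 5 reads over all LPS glands and 3 over all PBS glands, too few for a comparison.

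LPS glands 2 and 5 were also the highest for the lectin and immunoglobulin-type receptors, which sense microbial and damage signals. Clec4d and Clec4e are neighbours on chromosome 6 and encode C-type lectins that bind microbial glycolipids. Clec4d (chromosome 6, 123262111 to 123275265, plus strand) was at 1.75, 8.05, 2.85, 2.63 and 3.84 FPKM in LPS glands 1 to 5, against 0.869, 1.29, 0.752, 0.428 and 0.561 FPKM in PBS glands 1 to 5. The groups were separate and the log2 change was 1.33 ± 0.26 (adjusted p = 0.0188). Clec4e was at 0.982, 4.69, 1.79, 0.965 and 2.19 FPKM in LPS glands 1 to 5, against 0.207, 0.642, 0.148, 0.278 and 0.247 FPKM in PBS glands 1 to 5. It did not pass the filter although its groups were separate too, with a mean ratio of 6.98-fold. Its change without a filter was 1.15 ± 0.27 (adjusted p = 0.0918), and edgeR on recovered reads with its own filter called it with a log2 change of 2.75 (adjusted p = 0.00632). With a filter on a mean FPKM of 1 limma called Clec4e too (adjusted p = 0.0338). It passed that filter mainly through its LPS glands, so that call is a description.

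Trem1 and Trem3 encode receptors that amplify inflammatory signals of myeloid cells. Trem1 was at 0.567, 3.96, 1.08, 0.816 and 1.85 FPKM in LPS glands 1 to 5, against 0.166, 0.317, 0.0395, 0.0212 and 0.2296 FPKM in PBS glands 1 to 5, which gave the largest ratio of means of the 32 genes (10.7-fold), from 436 reads over the LPS glands and 39 over the PBS glands. Trem3 was at 0.853, 2.38, 2.04, 0.6303 and 2.08 FPKM in LPS glands 1 to 5, against 0.334, 0.656, 0.238, 0.384 and 0.189 FPKM in PBS glands 1 to 5. Every LPS gland exceeded every PBS gland for Trem1, and LPS gland 4 fell within the PBS range for Trem3. Neither passed the filter, and limma without a filter called neither (adjusted p = 0.118 for Trem1 and 0.104 for Trem3). edgeR on recovered reads with its own filter, chosen after seeing the data, called both. The log2 changes were 3.33 for Trem1 (adjusted p = 0.0117) and 2.08 for Trem3 (adjusted p = 0.0195). Both entered that fit mainly through their LPS glands, so these calls are a description. In PBS glands 1 to 5 Trem1 had 9, 16, 2, 1 and 11 reads, and Trem3 had 6, 11, 4, 6 and 3. A processed pseudogene is annotated across Trem1.

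The formyl peptide receptors, which detect bacterial peptides and guide migration, had smaller differences that did not pass the test. Fpr1 was at 2.52, 11.03, 5.76, 4.68 and 4.59 FPKM in LPS glands 1 to 5, against 3.34, 4.97, 2.01, 2.45 and 2.36 FPKM in PBS glands 1 to 5. Fpr2 was at 4.54, 10.9, 6.73, 3.21 and 7.86 FPKM in LPS glands 1 to 5, against 4.73, 4.39, 3.18, 3.702 and 2.65 FPKM in PBS glands 1 to 5. LPS gland 2 was the highest for both, and the groups overlapped for both. Their log2 changes were 0.67 ± 0.28 for Fpr1 (95% interval 0.06 to 1.27, adjusted p = 0.246) and 0.62 ± 0.24 for Fpr2 (0.10 to 1.14, adjusted p = 0.2103). The annotated gene Fpr3, which overlaps Fpr2, was listed at 0 in all glands. Prok2, a small peptide that attracts and mobilises myeloid cells, was at 0.229 to 2.11 FPKM in LPS glands and 0.0391 to 0.420 FPKM in PBS glands. Its groups overlapped and no test of this table called it, although the authors' deposited table lists it with an adjusted p of 0.0426.

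Promoters are shown of the markers Csf3r and Cxcr2, of the neighbours Clec4d and Clec4e, and of Retnlg, a called gene whose log2(FPKM + 1) change was within its standard error of those of Csf3r and Clec4d. Each is the RefSeq window of GRCm38.p6 from 250 bases before to 50 after the start that RefSeq gives. That start lies 109 bases downstream of the GENCODE gene start printed above for Csf3r, and within 13 bases of it for the other 4 genes. Capitals mark GAGGAA, the core bound by the myeloid factor PU.1, and TTGCNNAA, a C/EBP-type site, on either strand; TTCNNNGAA, a STAT-type site, was searched too. The windows are chr4:126024409-126024708 (plus strand) for Csf3r, chr1:74153744-74154043 (plus strand) for Cxcr2, chr6:123261857-123262156 (plus strand) for Clec4d, chr6:123289822-123290121 (minus strand) for Clec4e and chr16:48872358-48872657 (plus strand) for Retnlg.
Csf3r: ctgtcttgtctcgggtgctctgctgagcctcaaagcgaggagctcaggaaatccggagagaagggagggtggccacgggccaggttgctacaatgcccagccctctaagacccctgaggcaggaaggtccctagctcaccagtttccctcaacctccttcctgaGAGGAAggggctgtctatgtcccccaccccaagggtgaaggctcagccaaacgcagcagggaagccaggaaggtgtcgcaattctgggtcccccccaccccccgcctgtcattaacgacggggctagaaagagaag
Cxcr2: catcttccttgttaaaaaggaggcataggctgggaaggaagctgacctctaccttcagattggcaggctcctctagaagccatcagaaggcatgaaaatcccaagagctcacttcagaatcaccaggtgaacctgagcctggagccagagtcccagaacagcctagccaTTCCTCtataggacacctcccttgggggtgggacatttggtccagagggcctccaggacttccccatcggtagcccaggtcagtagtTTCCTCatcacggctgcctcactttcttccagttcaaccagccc
Clec4d: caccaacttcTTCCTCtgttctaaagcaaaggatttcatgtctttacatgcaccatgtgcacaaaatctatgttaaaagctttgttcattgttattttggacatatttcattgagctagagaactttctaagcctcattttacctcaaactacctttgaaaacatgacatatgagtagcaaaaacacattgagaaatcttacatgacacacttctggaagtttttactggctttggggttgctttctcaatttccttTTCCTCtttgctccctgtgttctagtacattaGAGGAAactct
Clec4e: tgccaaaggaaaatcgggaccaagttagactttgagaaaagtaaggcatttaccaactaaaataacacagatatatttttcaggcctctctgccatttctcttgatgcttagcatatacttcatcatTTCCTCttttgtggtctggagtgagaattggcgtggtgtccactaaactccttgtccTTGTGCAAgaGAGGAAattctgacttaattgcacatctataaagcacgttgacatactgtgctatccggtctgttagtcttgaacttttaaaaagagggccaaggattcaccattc
Retnlg: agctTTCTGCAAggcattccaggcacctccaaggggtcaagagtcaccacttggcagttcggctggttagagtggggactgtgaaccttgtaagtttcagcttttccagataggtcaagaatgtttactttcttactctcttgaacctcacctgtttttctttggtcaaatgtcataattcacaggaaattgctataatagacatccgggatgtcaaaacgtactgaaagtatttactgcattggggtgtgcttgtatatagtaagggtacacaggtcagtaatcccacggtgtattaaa

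GAGGAA was found 1 time in the Csf3r window, 2 times in that of Cxcr2, 3 times in that of Clec4d and 2 times in that of Clec4e, where the copy that begins at -56 lies close to the TTGCNNAA match that begins at -66 (bases counted from the RefSeq start). The Retnlg window held none, and 1 TTGCNNAA at -246. Promoters of 26 of the 32 genes were in the table, and 14 of them (53.8%) held GAGGAA, against 28.3% of 32851 windows of the same length. For the 26 genes 1 window each was counted, and for the background every window. TTGCNNAA was in 5 of the 26 (19.2%, against 10.8% of all windows), Clec4e, Mmp8, Ngp, Ly6g and Retnlg. TTCNNNGAA was in 4 (15.4%, against 8.3%), Chil3, Ncf1, Fpr2 and Trem1. These are matches of letters, not sites shown to be bound.

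**Figure D2:**
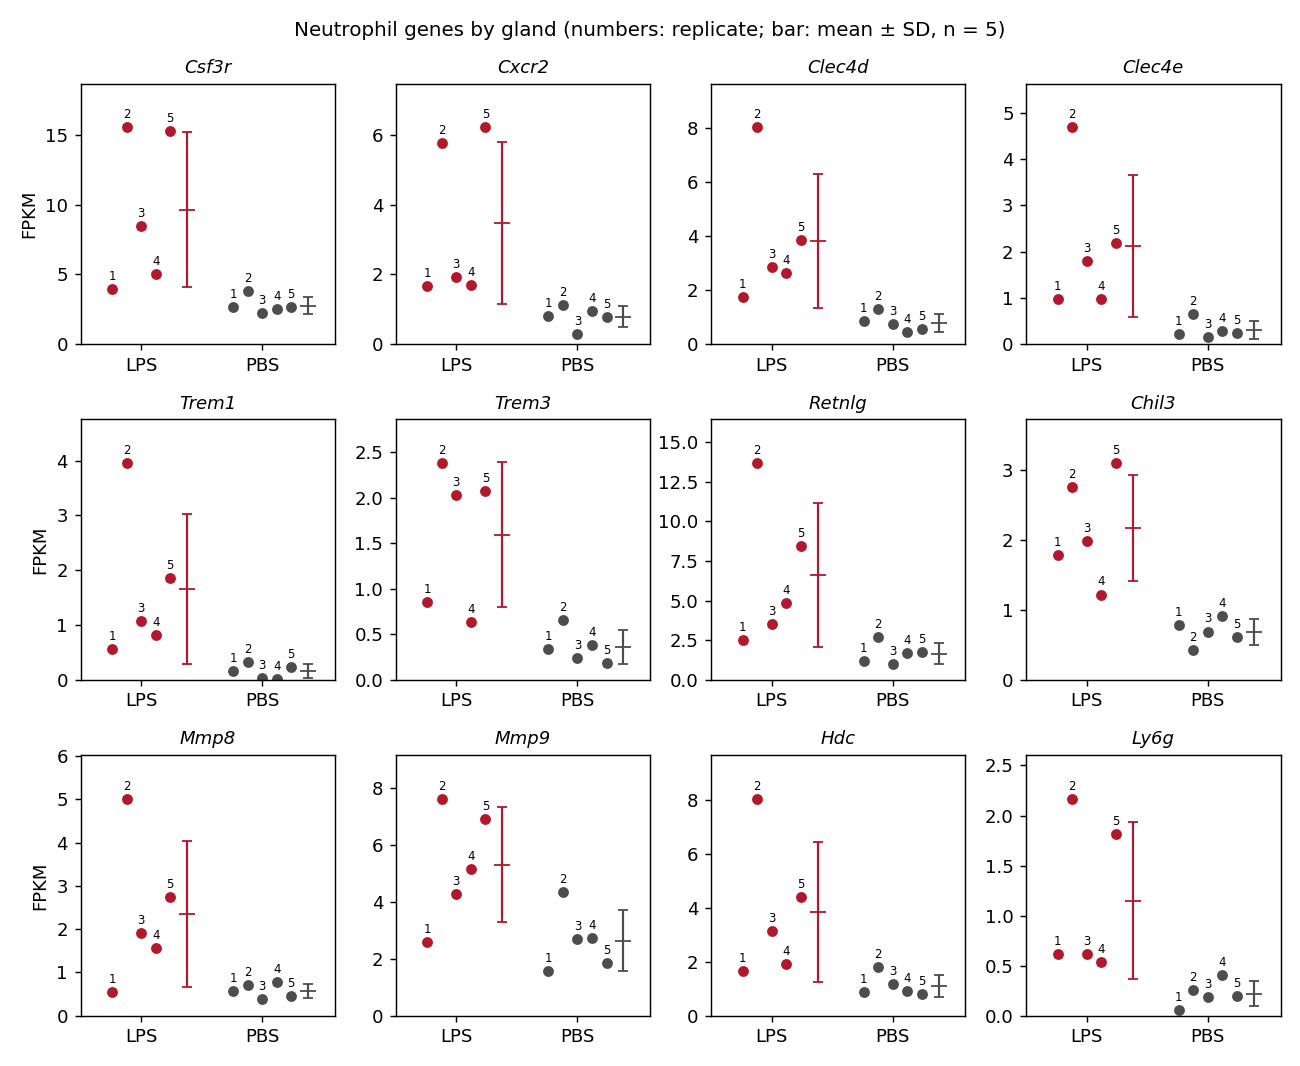
FPKM (y axis, from 0) of 12 neutrophil genes in each of the 5 LPS glands (red, left) and 5 PBS glands (grey, right); numbers give the replicate and bars the mean ± SD. LPS glands 2 and 5 are the highest LPS glands in all 12, and LPS gland 1 is the lowest for 8 of them.

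Of the 8 genes of granule and other secreted proteins 5 were tested and 2 rose, Retnlg and Chil3. Retnlg, a resistin-like protein secreted by neutrophils (chromosome 16, 48872621 to 48874496, plus strand), was at 2.53, 13.7, 3.52, 4.84 and 8.44 FPKM in LPS glands 1 to 5, against 1.18, 2.73, 0.973, 1.67 and 1.75 FPKM in PBS glands 1 to 5. LPS gland 1 fell within the PBS range. The mean was 6.604 ± 4.55 FPKM in LPS glands and 1.66 ± 0.6805 FPKM in PBS glands (SD, n = 5 each), with a log2 change of 1.36 ± 0.33 (adjusted p = 0.0463). Chil3, a chitinase-like protein of neutrophils and activated macrophages (chromosome 3, 106147554 to 106167564, minus strand), was at 1.79, 2.76, 1.99, 1.22 and 3.105 FPKM in LPS glands 1 to 5, against 0.7905, 0.424, 0.692, 0.908 and 0.609 FPKM in PBS glands 1 to 5. The groups were separate, the LPS glands were more even than for the other genes that rose, and the log2 change was 0.89 ± 0.17 (adjusted p = 0.0157). Its near-identical copy Chil4 was listed at 0 in all glands, so the level of Chil3 depends on how the authors' counting treated reads that match both copies.

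Mmp8 and Mmp9 encode the collagenase and gelatinase that neutrophils store in granules. Mmp8 was at 0.5401, 5.01, 1.91, 1.56 and 2.74 FPKM in LPS glands 1 to 5, against 0.564, 0.701, 0.386, 0.777 and 0.459 FPKM in PBS glands 1 to 5. Mmp9 was at 2.59, 7.64, 4.28, 5.15 and 6.91 FPKM in LPS glands 1 to 5, against 1.57, 4.35, 2.701, 2.74 and 1.85 FPKM in PBS glands 1 to 5. LPS gland 1 fell within the PBS range for both, and PBS gland 2 lay just above LPS gland 3 for Mmp9. The log2 change of Mmp9 was 0.78 ± 0.25 (95% interval 0.24 to 1.31, adjusted p = 0.114). Mmp8 did not pass the filter. Neither limma without a filter (adjusted p = 0.216) nor limma with a filter on a mean FPKM of 1 (adjusted p = 0.0971) called it. edgeR on recovered reads with its own filter, chosen after seeing the data, gave it a log2 change of 1.95 (adjusted p = 0.0306).

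Camp, Ngp, Mpo and Elane encode further granule proteins, and PBS gland 4 was the highest PBS gland for each, as it was for Mmp8. Camp, the cathelicidin peptide, was at 4.67, 3.12, 2.597, 3.13 and 4.42 FPKM in LPS glands 1 to 5, against 1.38, 1.08, 1.18, 3.07 and 2.495 FPKM in PBS glands 1 to 5. PBS gland 4 overlapped the LPS range, and the log2 change was 0.72 ± 0.20 (95% interval 0.28 to 1.16, adjusted p = 0.0774). Of the 10 limma fits with 1 library left out, 1 called Camp, that without PBS gland 4 (adjusted p = 0.0487). The others gave it an adjusted p of 0.0776 to 0.180. Ngp, a cathelicidin-like granule protein, was at 0.784, 4.39, 1.71, 2.11 and 2.33 FPKM in LPS glands 1 to 5, against 0.772, 0.779, 0.437, 5.797 and 0.821 FPKM in PBS glands 1 to 5. PBS gland 4 had the highest level of all 10 glands, and the other 4 PBS glands lay at or below 0.821 FPKM. Mpo and Elane, the myeloperoxidase and elastase of the primary granule, are made in promyelocytes. Mpo had 2, 3, 0, 0 and 2 reads in LPS glands 1 to 5, against 0, 2, 2, 29 and 1 reads in PBS glands 1 to 5. Elane had 1, 3, 0, 2 and 0 reads in LPS glands, against 2, 1, 2, 28 and 0 reads in PBS glands. Most reads of both genes came from PBS gland 4. In that gland Ctsg and Ms4a3, a further primary granule protease and a gene of granulocyte precursors, named after their values were seen, were at 0.571 and 0.254 FPKM, and both were listed at 0 in the 9 other glands. Of 5 genes listed beside those of the primary granule, Ctsg and Ms4a3 among them, none passed the filter and Bpi was at 0 in all glands. Prtn3 was highest in PBS gland 4 too, at 1.61 FPKM, but had 1.015 FPKM in LPS gland 3 and was above 0 in every gland. Serpinb1a was highest in PBS gland 2, at 2.35 FPKM, with 1.76 FPKM in PBS gland 4. Red cell markers, 0 of 3 tested called, were highest among the PBS glands in PBS gland 4 too, with a sum of 73.9 FPKM, although LPS gland 4 reached 89.5 FPKM; their part in the result was not tested.

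**Figure D3:**
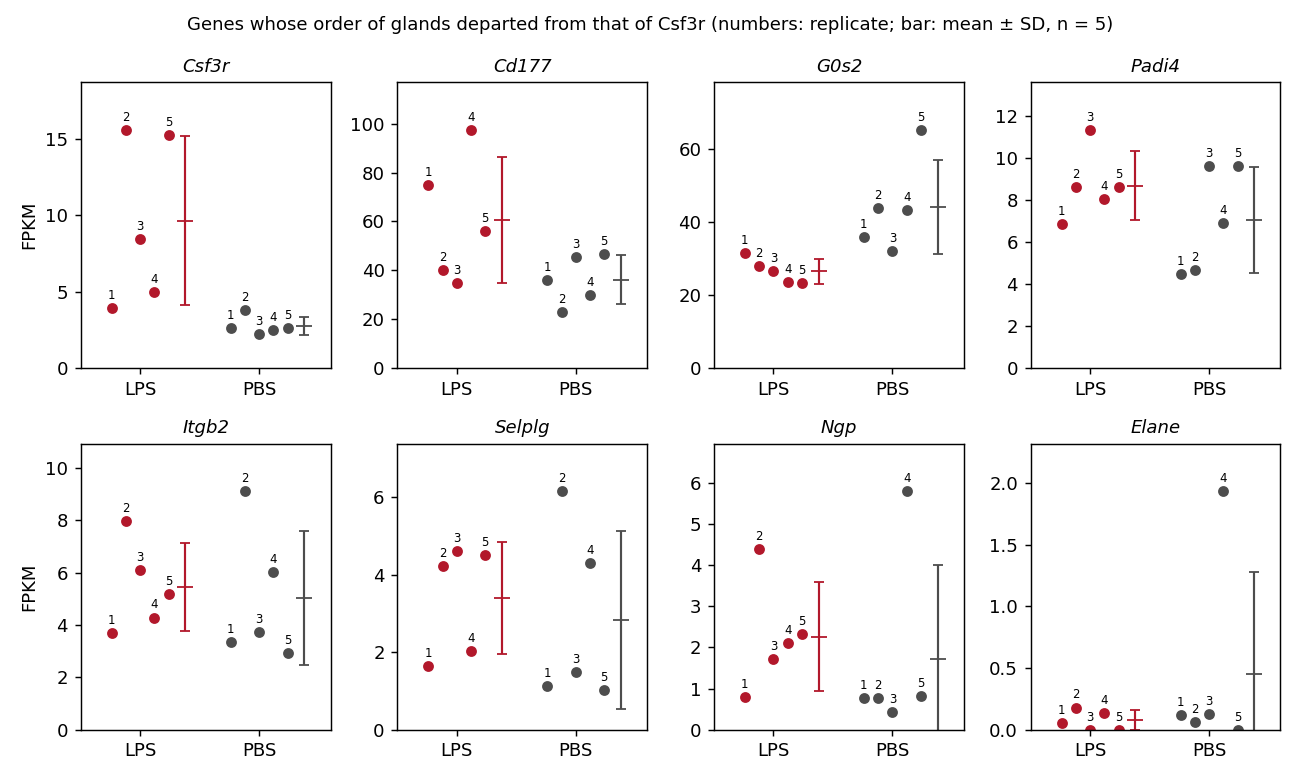
FPKM (y axis, from 0) of 8 neutrophil genes in each LPS gland (red, left) and PBS gland (grey, right); numbers give the replicate, bars the mean ± SD, cut at 0. Csf3r peaks in LPS glands 2 and 5 and Cd177 in LPS glands 4 and 1, Itgb2 and Selplg are high in PBS gland 2, and Ngp and Elane are highest in PBS gland 4.

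Of the 5 surface protein genes 4 were tested and limma called 0, 1 of them being higher at an unadjusted p below 0.05 (Cd177); edgeR and DESeq2 called 0 as well. Itgam and Itgb2 encode the chains of the integrin that holds neutrophils to the vessel wall, which monocytes and macrophages share. Itgam was at 4.35, 10.5, 7.68, 6.55 and 5.93 FPKM in LPS glands 1 to 5, against 3.86, 7.93, 6.49, 4.58 and 3.62 FPKM in PBS glands 1 to 5. Itgb2 was at 3.69, 7.96, 6.11, 4.28 and 5.16 FPKM in LPS glands 1 to 5, against 3.35, 9.10, 3.72, 6.04 and 2.92 FPKM in PBS glands 1 to 5. PBS gland 2 reached the upper LPS values for Itgam and had the highest Itgb2 of all glands. The log2 changes were 0.35 ± 0.22 (95% interval -0.13 to 0.82, adjusted p = 0.481) for Itgam and 0.15 ± 0.25 (-0.39 to 0.70, adjusted p = 0.840) for Itgb2, the second turning to -0.02 when FPKM were rescaled to the sum outside milk proteins. Selplg, the selectin ligand of leukocytes, lymphocytes included, was at 1.65, 4.21, 4.62, 2.02 and 4.51 FPKM in LPS glands 1 to 5, against 1.13, 6.14, 1.499, 4.296 and 1.03 FPKM in PBS glands 1 to 5. It was high in PBS glands 2 and 4 and in LPS glands 2, 3 and 5, with a log2 change of 0.33 ± 0.36 (-0.45 to 1.11, adjusted p = 0.726).

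Ly6g and Cd177 encode surface proteins anchored by a lipid and used to mark mouse neutrophils. Ly6g was at 0.6195, 2.17, 0.614, 0.533 and 1.82 FPKM in LPS glands 1 to 5, against 0.0588, 0.252, 0.189, 0.405 and 0.199 FPKM in PBS glands 1 to 5. Its groups did not overlap, on 95 reads over the LPS glands and 17 over the PBS glands; it did not pass the filter, and its change without one was 0.75 ± 0.21 (adjusted p = 0.164). The Ly6 genes are a family of similar copies, so low values of this member are uncertain. Cd177 was at 74.98, 40.1, 34.8, 97.4 and 56.1 FPKM in LPS glands 1 to 5, against 36.03, 23.2, 45.4, 29.8 and 46.6 FPKM in PBS glands 1 to 5. Its level stood far above those of Csf3r and Cxcr2 in both groups, and its highest LPS glands were 4 and 1, the glands with the least Csf3r among the LPS glands. The log2 change of Cd177 was 0.67 ± 0.27 (95% interval 0.09 to 1.26, adjusted p = 0.225).

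The NADPH oxidase had 0 of its 4 tested genes called by limma with group as the only term. Cyba alone had an unadjusted p below 0.05 there, and neither edgeR nor DESeq2 called any of the 4. Cybb and Cyba encode the membrane pair that carries electrons to oxygen. Cybb was at 5.05, 6.903, 9.74, 5.53 and 3.56 FPKM in LPS glands 1 to 5, against 6.03, 9.64, 5.21, 6.25 and 4.73 FPKM in PBS glands 1 to 5. Its log2 change was -0.07 ± 0.22 (95% interval -0.54 to 0.40, adjusted p = 0.9296), and the sign turned positive, at 0.01 to 0.10, with library weights, with the B and T cell score as a covariate, or without LPS gland 5 or PBS gland 2. Cyba, expressed in many cell types, was at 88.02, 83.1, 103, 65.05 and 50.98 FPKM in LPS glands 1 to 5, against 49.9, 67.7, 56.6, 61.5 and 41.5 FPKM in PBS glands 1 to 5. LPS glands 1 to 3 lay above every PBS gland and LPS glands 4 and 5 did not, for a log2 change of 0.47 ± 0.18 (0.07 to 0.86, adjusted p = 0.214). With the B and T cell score as a covariate, a setting chosen after seeing the data, limma called Cyba (log2 change 0.59, adjusted p = 0.0365). Ncf1 and Ncf4 encode cytosolic subunits that join the membrane pair on activation. Ncf1 was at 1.86, 5.05, 3.49, 2.28 and 3.73 FPKM in LPS glands 1 to 5, against 1.53, 4.22, 1.93, 2.54 and 1.54 FPKM in PBS glands 1 to 5. Ncf4 was at 4.27, 8.81, 6.08, 3.77 and 4.63 FPKM in LPS glands 1 to 5, against 3.44, 6.68, 3.23, 5.17 and 2.902 FPKM in PBS glands 1 to 5. Both were highest in LPS gland 2 and next highest in PBS gland 2. Their log2 changes were 0.36 ± 0.23 (-0.15 to 0.87, adjusted p = 0.496) for Ncf1 and 0.30 ± 0.22 (-0.18 to 0.78, adjusted p = 0.567) for Ncf4. Outside the 32 genes, Rac1, a GTPase that takes part in the oxidase and acts in many cell types, was at 114 ± 6.58 FPKM in LPS glands and 104 ± 1.88 FPKM in PBS glands (adjusted p = 0.436). Cybc1, a chaperone of the membrane pair, was at 13.5 ± 2.67 FPKM in LPS glands and 10.8 ± 3.03 FPKM in PBS glands (adjusted p = 0.388).

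Of the 5 enzymes and regulators, all tested, 0 rose and 1 fell (G0s2) by limma. Hdc, which makes histamine and is expressed by neutrophils and mast cells, was at 1.64, 8.05, 3.16, 1.93 and 4.40 FPKM in LPS glands 1 to 5, against 0.869, 1.797, 1.18, 0.9003 and 0.816 FPKM in PBS glands 1 to 5. LPS glands 2 and 5 stood out, and LPS gland 1 lay within the PBS range. Its log2 change was 1.06 ± 0.29 (adjusted p = 0.0658), and the tests on recovered reads called it (edgeR adjusted p = 0.0221, DESeq2 adjusted p = 6.61e-05). Mast cell and basophil markers were called for 0 of 5 tested genes and summed to 9.57 to 16.3 FPKM in LPS glands and 7.58 to 26.3 FPKM in PBS glands. Asprv1, an aspartic protease of skin and of neutrophils, was at 1.66, 4.54, 1.59, 1.39 and 2.16 FPKM in LPS glands 1 to 5, against 0.723, 1.05, 1.59, 0.624 and 0.776 FPKM in PBS glands 1 to 5. Its log2 change was 0.69 ± 0.22 (95% interval 0.22 to 1.16, adjusted p = 0.113), and DESeq2 alone of the tests on recovered reads called it (adjusted p = 0.0243).

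Alox5ap, which hands arachidonic acid to the leukotriene enzyme 5-lipoxygenase, was at 7.59, 15.1, 9.43, 7.35 and 11.5 FPKM in LPS glands 1 to 5, against 7.79, 8.77, 7.29, 6.79 and 6.23 FPKM in PBS glands 1 to 5. It was highest in LPS glands 2 and 5, with a log2 change of 0.38 ± 0.17 (0.02 to 0.75, adjusted p = 0.274). Of 4 other leukotriene genes only Lta4h, of the next enzyme, passed the filter, at 8.62 ± 1.68 FPKM in LPS glands and 10.4 ± 1.57 FPKM in PBS glands (adjusted p = 0.386). Padi4, the enzyme that citrullinates histones when neutrophils cast chromatin traps, was at 6.84, 8.61, 11.3, 8.05 and 8.61 FPKM in LPS glands 1 to 5, against 4.503, 4.65, 9.61, 6.90 and 9.64 FPKM in PBS glands 1 to 5. PBS glands 3 and 5 exceeded every LPS gland but LPS 3, and the log2 change was 0.31 ± 0.20 (-0.12 to 0.74, adjusted p = 0.492).

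G0s2, an inhibitor of the triglyceride lipase of fat cells that is also abundant in neutrophils (chromosome 1, 193272161 to 193273217, minus strand), went the other way. It was at 31.5, 27.9, 26.4, 23.4 and 23.3 FPKM in LPS glands 1 to 5, against 35.9, 43.7, 31.9, 43.2 and 65.1 FPKM in PBS glands 1 to 5. Every LPS gland lay below every PBS gland, and PBS gland 5 was the highest. The mean was 26.5 ± 3.42 FPKM in LPS glands and 43.97 ± 12.8 FPKM in PBS glands (SD, n = 5 each), a log2 change of -0.67 ± 0.16 (adjusted p = 0.0445; 0.0538 with median-of-ratios scaling). Beside it, adipocyte markers had 0 of 9 genes called and summed to 413 to 781 FPKM in LPS glands and 466 to 888 FPKM in PBS glands; their part in the result was not tested. Lamb3 is annotated across G0s2 on the other strand, and the labels do not state whether strand was kept, so reads of the pair cannot be told apart; Lamb3 averaged 7.80 FPKM in LPS glands and 6.41 FPKM in PBS glands.

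LPS glands 2 and 5 were the highest pair of LPS glands for 19 of the 32 genes, a pattern found in 5.69% of the 11414 tested genes. LPS gland 2 was the highest of all 10 glands for 17, against 18.9% of tested genes, and LPS gland 1 was the lowest LPS gland for 15. Among PBS glands the highest was PBS 2 for 19 genes and PBS 4 for 8. For the counts of 15, 19 and 8 no share over all tested genes was taken. The pair PBS 2 and PBS 4, the glands richest in B and T cell transcripts, was the highest for 13 of the 32, against 24.8% of tested genes, and all 4 oxidase genes were among them. Cd177 was the only one of the 32 with LPS glands 1 and 4 as the highest pair, a pattern of 7.14% of tested genes. The same gland supplied many of these genes, so the counts describe glands and not independent genes.

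**Figure D4:**
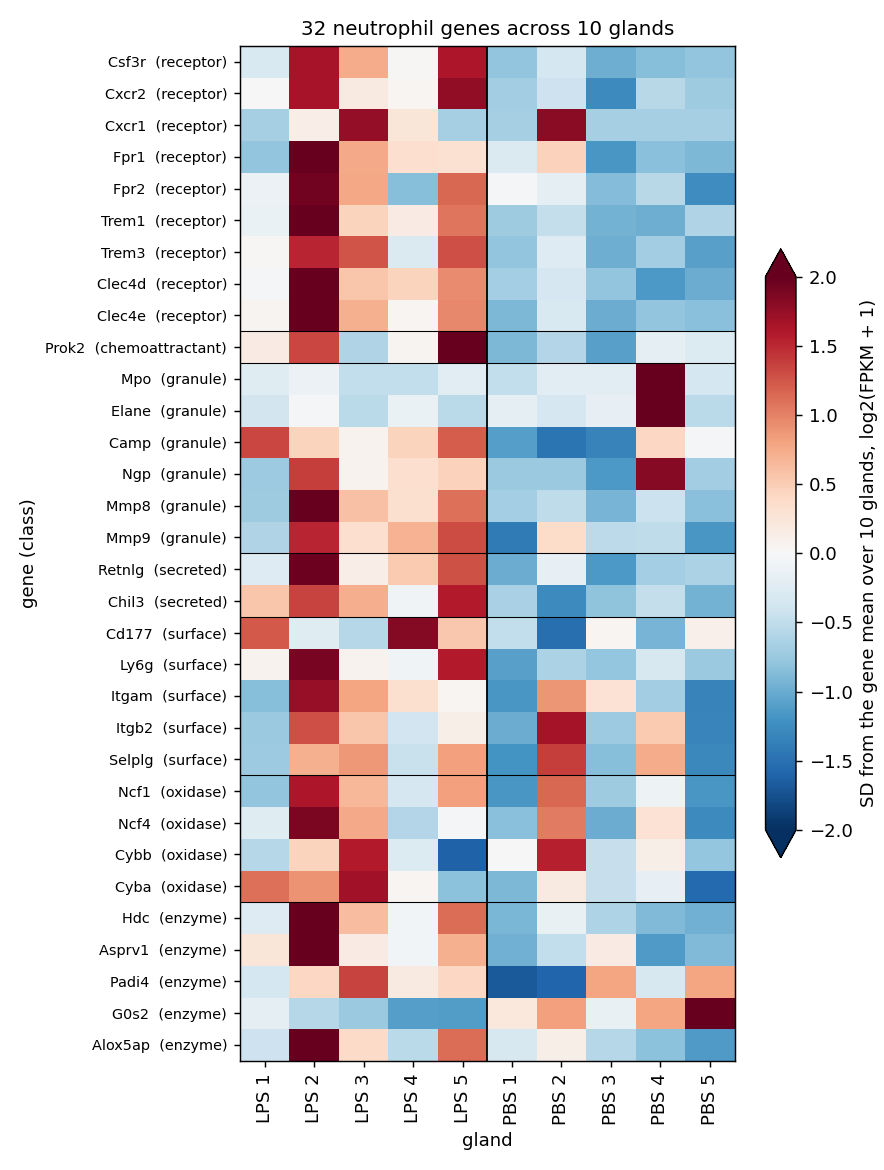
Each row is 1 of the 32 genes, each column a gland (LPS 1 to 5, then PBS 1 to 5), and the colour is the distance from the gene's mean in SD on log2(FPKM + 1), ending at 2 SD. Red cells gather in LPS 2 and LPS 5 for Mmp8, Mmp9, Hdc and the receptors other than Cxcr1 and Fpr1. The oxidase genes other than Cyba, Itgb2 and Selplg are also red in PBS 2, and Mpo, Elane and Ngp in PBS 4.

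Most of the calls lay close to the threshold, and 4 of the 6 were lost in most fits with 1 library left out. With the genes tested kept fixed, Chil3 was called in all 10 such fits (highest adjusted p = 0.0486), with a log2 change of 0.79 to 1.01, but it had entered the test through its LPS glands and was not called without a filter (adjusted p = 0.0557). Clec4d lost the call in 1 of the 10 fits, without PBS gland 4 (adjusted p = 0.0557). Csf3r lost it without LPS gland 2, 3 or 5 or PBS gland 1, 3, 4 or 5 (adjusted p = 0.0641 to 0.0885), while its log2 change was 1.14 to 1.58 over the 10 fits. Cxcr2 lost it without those glands or without PBS gland 2 (0.0558 to 0.126), Retnlg without LPS gland 2, 3, 4 or 5 or PBS gland 1, 3, 4 or 5 (0.0524 to 0.119), and G0s2 without LPS gland 2, 3, 4 or 5 or PBS gland 1, 2, 4 or 5 (0.0546 to 0.106). Over the 10 fits the log2 change was 0.98 to 1.34 for Cxcr2, 1.07 to 1.58 for Retnlg and -0.78 to -0.53 for G0s2. The number of the 23 called as higher was 7 without LPS gland 1 (3.76% of all tested genes), 5 without LPS gland 4 (2.4%) and 4 without PBS gland 2 (2.51%). It was 2, Clec4d and Chil3, without LPS gland 2 (1.08% of all tested genes), LPS gland 3 (1.44%), LPS gland 5 (2.01%), PBS gland 1 (1.13%), PBS gland 3 (2.56%) or PBS gland 5 (1.56%). Without PBS gland 4 (1.06%) it was 2 as well, Camp and Chil3. Without the 3 glands richest in B and T cell transcripts limma called none of the 23, with 17 higher at an unadjusted p below 0.05, and 0.245% of all tested genes as higher. The changes of the called genes were then about as large as with all glands, at 1.43 for Csf3r, 1.43 for Cxcr2, 1.41 for Clec4d, 1.68 for Retnlg and 0.88 for Chil3. With the B and T cell score as a covariate 8 of the 23 were called as higher, against 5.48% of all tested genes, Mmp9, Cyba and Hdc being added. Other settings of the limma test called 6 with a pseudocount of 0.1 (2.65% of all tested genes), 2 with a pseudocount of 5 (2.4%), 5 of 25 with a filter on a mean FPKM of 1 (2.56%) and 7 with library weights (4.68%). The filter on a mean FPKM of 1 added Clec4e (adjusted p = 0.0338) and lost Cxcr2 (adjusted p = 0.0512). Library weights added Mmp9 and Hdc. Median-of-ratios scaling gave 4 (2.32%), and scaling to the FPKM summed over all but milk protein genes gave 2 (1.12%). On recovered reads of the same genes edgeR called 6 (2.67%) and DESeq2 8 (4.78%).

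Markers of other myeloid cells were read beside these genes. Monocyte and macrophage markers had 0 of 10 tested genes called (median log2 change -0.43), and all 16 summed to 94.9 to 199 FPKM in LPS glands and 117 to 381 FPKM in PBS glands. Apoe, the most abundant, was at 96.7 ± 24.5 FPKM in LPS glands and 138 ± 61.2 FPKM in PBS glands, and the complement gene C1qa at 19.6 ± 6.21 FPKM in LPS glands and 29.9 ± 12.2 FPKM in PBS glands. Genes of all leukocytes had 0 of 6 called (median -0.04), with Fcer1g at 18.9 ± 5.97 FPKM in LPS glands and 18.5 ± 5.42 FPKM in PBS glands and Cd52 at 16.2 ± 6.49 FPKM in LPS glands and 21.04 ± 18.3 FPKM in PBS glands. Eosinophil markers summed to 0.0836 to 0.451 FPKM in LPS glands and 0.0996 to 0.978 FPKM in PBS glands, and dendritic cell markers had 0 of 1 tested gene called (Zbtb46). Of 9 genes of milk-secreting epithelium Krt8, a keratin, alone rose, at 188 ± 34.6 FPKM in LPS glands and 129.5 ± 14.2 FPKM in PBS glands (log2 change 0.53 ± 0.13, adjusted p = 0.0445). The part of these cells in the results above was not tested.

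Other genes of neutrophil biology gave a mixed account, where 2.63% of all tested genes rose. Of 13 tested receptors outside the 32, 1 rose: Ccr1, a receptor of CC chemokines, at 2.61 ± 0.979 FPKM in LPS glands and 1.005 ± 0.313 FPKM in PBS glands (log2 change 0.82 ± 0.19, adjusted p = 0.03798). Of 8 tested genes of other secondary and tertiary granule proteins 2 rose, Pglyrp1, which binds bacterial cell walls, at 156 ± 29.2 FPKM in LPS glands and 49.2 ± 10.8 FPKM in PBS glands (log2 change 1.65 ± 0.15, adjusted p = 0.000241), and Olfm4 at 4.504 ± 0.8897 FPKM in LPS glands and 1.68 ± 0.477 FPKM in PBS glands (1.04 ± 0.15, adjusted p = 0.00506). Both are also made by epithelia, and neither peaked in LPS glands 2 and 5 alone: Pglyrp1 was at 172, 200.4, 131, 142 and 137 FPKM in LPS glands 1 to 5, against 38.4, 45.5, 51.4, 44.1 and 66.6 FPKM in PBS glands 1 to 5.

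Ligands and regulators of neutrophils had 4 of 8 tested genes higher and 0 lower, where 2.63% of all tested genes rose and 0.605% fell. Cxcl5, a ligand of Cxcr2, was at 3.11, 18.4, 7.89, 1.55 and 12.6 FPKM in LPS glands 1 to 5, against 0.501, 1.003, 0.143, 0.154 and 0.3398 FPKM in PBS glands 1 to 5. LPS glands 2 and 5 were again the highest. Cxcl5 passed the filter through its LPS glands and PBS gland 2, so the count of 4 is a description. Cxcl3, another Cxcr2 ligand, had a log2 change of 1.86 ± 0.35 (adjusted p = 0.0158). The more abundant Cxcr2 ligands Cxcl1 and Cxcl2, named after their values were seen, were tested and not called. Cxcl1 was at 539 ± 138 FPKM in LPS glands and 470 ± 127 FPKM in PBS glands (log2 change 0.20 ± 0.20, adjusted p = 0.7095). Cxcl2 was at 135 ± 47.4 FPKM in LPS glands and 96.2 ± 27.4 FPKM in PBS glands (0.48 ± 0.24, adjusted p = 0.354). Csf3, the gene of G-CSF and so of the ligand of the Csf3r product, was at 30.4, 61.2, 51.01, 37.3 and 112 FPKM in LPS glands 1 to 5, against 15.2, 10.9, 16.4, 12.9 and 27.3 FPKM in PBS glands 1 to 5. It was highest in LPS glands 5 and 2, and every LPS gland lay above every PBS gland. Anxa1, which restrains neutrophil entry, is named after its values were seen, as the remaining one of the 4, and had a log2 change of 1.14 ± 0.20 (adjusted p = 0.0128).

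The authors' deposited table of genes with an adjusted p below 0.05 lists 14 of the 32, 13 as higher and G0s2 as lower in LPS glands, where it lists 2.64% of the 23059 genes above 0 as higher and 1.3% as lower. Its largest log2 change among them is that of Clec4e, 1.54 in the authors' deposited table (adjusted p = 2.29e-08), followed there by Clec4d at 1.31. The authors' log2 changes are not on the scale of those above. Trem1 is at 0.86 there, against 3.33 by edgeR with its own filter. The 8 genes that table lists as higher and that the first limma fit here did not call are Trem1, Trem3, Clec4e, Prok2, Mmp8, Mmp9, Hdc and Asprv1. Of these, Clec4e, Mmp9, Hdc and Asprv1 were each called under some other setting of limma.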

How the data were processed

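Sequenced RNA came from 5 LPS and 5 PBS glands. The tools were STAR 2.5, HTSeq 0.6.1 and DESeq2 (listed as version 2) on build mm10, per the submitters' processing notes, with no settings or annotation release given in the sources used here. The authors deposited FPKM for 35275 genes, 23059 of them above 0. For the 908 genes of their own comparison they also deposited raw counts, normalized values (a signal, the count over 1 size factor per library), log2 fold changes and p-values, per the file headers. Whole reads were recovered from the FPKM for 23059 genes within a tolerance of 0.002 reads, and equalled the deposited counts for 907 of 908. Depth was 15734303 to 18869545 reads per library, and intervals cover the spread between libraries only.

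Genes that reached 1 FPKM in 5 or more libraries were tested on log2(FPKM + 1) with limma 3.58.1 (intensity trend, two-sided, R 4.3.3), with Benjamini-Hochberg adjustment over all 11414 and group as the only term. edgeR 4.0.16 (quasi-likelihood) and DESeq2 1.42.0 were run on recovered reads as alternatives, and the code was tested on simulated data. The members and gene lists were chosen with earlier results of these data known. Values in every gland are given for members with a mean FPKM of at least 1 in either group, and others by range or reads; of each other list up to 3 called genes of largest change, or up to 2 tested genes of highest mean, were to be named. Promoters came from RefSeq (GRCm38.p6, the build mm10) and gene positions from GENCODE M21 on the same build. Alternatives were other pseudocounts, filters, scalings and tests, a replicate block, library weights and left-out libraries.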

Additional observations from a re-analysis of the deposited data

Results flagged for a closer look

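In 7 of 64 sets of 5 glands, 1 gland stood far from the other 4 by Dixon's criterion, where chance gives about 1 in 20. LPS gland 2 stood apart from the other LPS glands for Asprv1, at 4.54 FPKM with the next at 2.16 FPKM. PBS gland 2 stood apart from the other PBS glands for 3 receptors. It had 3.78 FPKM of Csf3r with the next PBS gland at 2.64 FPKM, 0.642 FPKM of Clec4e with the next at 0.278 FPKM, and 0.123 FPKM of Cxcr1, 3 reads, with the other PBS glands at 0. PBS gland 4 stood apart for 3 genes that marrow precursors transcribe. It had 0.670 FPKM of Mpo with the next PBS gland at 0.0431 FPKM, 1.93 FPKM of Elane with the next at 0.129 FPKM, and 5.80 FPKM of Ngp with the next at 0.821 FPKM.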

How the results depend on the processing

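The count of 5 neutrophil genes higher in LPS glands was 6 with a pseudocount of 0.1, 5 with a filter on a mean FPKM of 1, 4 with median-of-ratios scaling, 6 with edgeR and 7 with library weights. It became 2 with a pseudocount of 5, 0 without a filter, 0 without the 3 libraries richest in B and T cell transcripts, and 8 with DESeq2. It was 10 with edgeR's own filter and 8 with the B and T cell score as a covariate, both chosen after seeing the data. Leaving out 1 library gave 2 to 7. Rescaling to the sum outside milk proteins gave 2; it moved the median change of all tested genes to -0.13, against 0.05, and that of Itgb2 to -0.02. Cybb, at -0.07, ranged from -0.23 to 0.08 as single libraries were left out and changed sign to 0.08 without LPS replicate 5, 0.07 without PBS replicate 2, 0.01 with library weights and 0.10 with the covariate. Of 536 pairs of a gene and an alternative, 452 kept direction and side of the threshold, 53 lost and 26 gained a call, and 5 reversed. Most of the 452 were genes called in neither fit, and all 53 losses fell on the genes that the first limma fit had called. The cause was not tested. With the replicate number as a block 11 were higher (8.43% of all tested genes), Camp, Mmp9, Itgam, Cyba, Hdc and Asprv1 being added, but the labels do not say that equal numbers share a mouse: same-number correlations of deviations were 0.0993 to 0.494, and LPS glands 3 and 4 correlated best with PBS glands of another number. Depth limits Cxcr1, Mpo, Elane and Prok2.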
